A study of Homo sapiens with 6 samples.

Results

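The genes described here make, sense and export cholesterol: the enzymes of the isoprenoid and sterol steps, the SREBP transcription factors with their membrane partners, a sterol carrier, and the liver X receptor (LXR) genes with efflux and uptake genes under LXR control. They were taken from a list of 30 gene names, and 27 of them were measured among 19775 genes by the rule that a probe set carries 1 gene symbol and that the probe set with the highest mean over all 6 arrays stands for its gene. FDFT1, CYP51A1 and NR1H2 had no such probe set in the annotation used and were not analysed here. RNA came from the cell line KOPTK1, derived from a human T-cell acute lymphoblastic leukaemia and cultured for 48 h with 1 µM PD0332991 (3 arrays) or with vehicle (3 arrays). PD0332991 (palbociclib) inhibits CDK4 and CDK6, the kinases that act with D-type cyclins at entry into S phase. The submitters describe biological triplicates, no genetic change separates the groups, and all arrays come from 1 cell line. The comparison asks how these RNAs differ after the inhibitor.

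Cholesterol is built from acetyl-CoA through mevalonate and isoprenoid units to squalene, lanosterol and then cholesterol. When sterol in the membrane of the endoplasmic reticulum is low, SCAP carries SREBP2, the product of SREBF2, to the Golgi, where it is cut to release a transcription factor that switches on the enzyme genes. INSIG proteins hold SCAP back when sterol is high. LXR acts the other way: oxysterols activate it, and it switches on the export pumps ABCA1 and ABCG1 and the ubiquitin ligase gene MYLIP, whose product marks lipoprotein receptors for degradation. Proliferating lymphocytes need sterol for new membrane.

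The median intensity of an array was 49.1 to 54.3. Pearson r over genes, which are no replicates, was 0.976 to 0.979 for a PD0332991 array against a vehicle array and 0.993 to 0.996 within a group. Of 9 T lineage markers, 6 were higher with PD0332991 at a limma adjusted p under 0.05, against 15.6% of all genes, and 3 did not pass. The summed intensity of the 9 was 33996 to 35189 with PD0332991 and 27267 to 29436 with vehicle. The sum of 5 myeloid markers was 215 to 230 with PD0332991 and 246 to 261 with vehicle, led by MPO and CSF1R. The dimmest of these, named after their values were seen, were LYZ at 14.2 with PD0332991 and 12.3 with vehicle and CD14 at 3.98 with PD0332991 and 6.43 with vehicle. The 3 measured B lineage markers summed to 565 to 718 with PD0332991 and 333 to 390 with vehicle. The B lineage sum lay mostly in CD79A (543 with PD0332991, 275 with vehicle), while MS4A1 was at 38.7 with PD0332991 and 49.5 with vehicle. The 3 fibroblast markers, led by COL1A1 and COL1A2, summed to 126 to 141 with PD0332991 and 125 to 170 with vehicle. All 8 division markers were lower at a limma adjusted p under 0.05, against 13.6% of all genes. Their summed intensity was 7297 to 9042 with PD0332991 and 29670 to 31105 with vehicle. The part of these markers in the results that follow was not tested. In RNA from a whole culture, fewer cells of one state and less RNA per cell cannot be told apart.

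Most of the enzyme genes, SREBF1, SREBF2 and INSIG1 were lower with PD0332991, whereas no decrease of ABCA1, ABCG1 or MYLIP passed the test on the probe set used. Of the 27 measured genes, 16 fell and 2 rose at an adjusted p under 0.05 in limma (Benjamini-Hochberg over all genes), and 9 did not pass. Over all genes tested 13.6% fell and 15.6% rose by the same rule. Those shares include dim genes, whereas 25 of the 27 lay above the median intensity of all genes, so the 2 sets are not matched for brightness. The list was also chosen with earlier results of these data known, so setting its counts beside these shares is no test. At least 2-fold decreases were found in 5 of the 27, namely ACAT2, INSIG1, SREBF2, SQLE and FDPS, and in 2.55% of all genes. All 3 PD0332991 arrays lay below all 3 vehicle arrays for 18 of the 27 genes, against 20.0% of all genes, and above them for 3, against 23.0%. The median log2 fold change was -0.43 over the 27 genes and 0.01 over all genes, on the scale of log2(intensity + 16), which understates the change of dim genes. This scale is used for every fold change below.

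**Figure D1:**
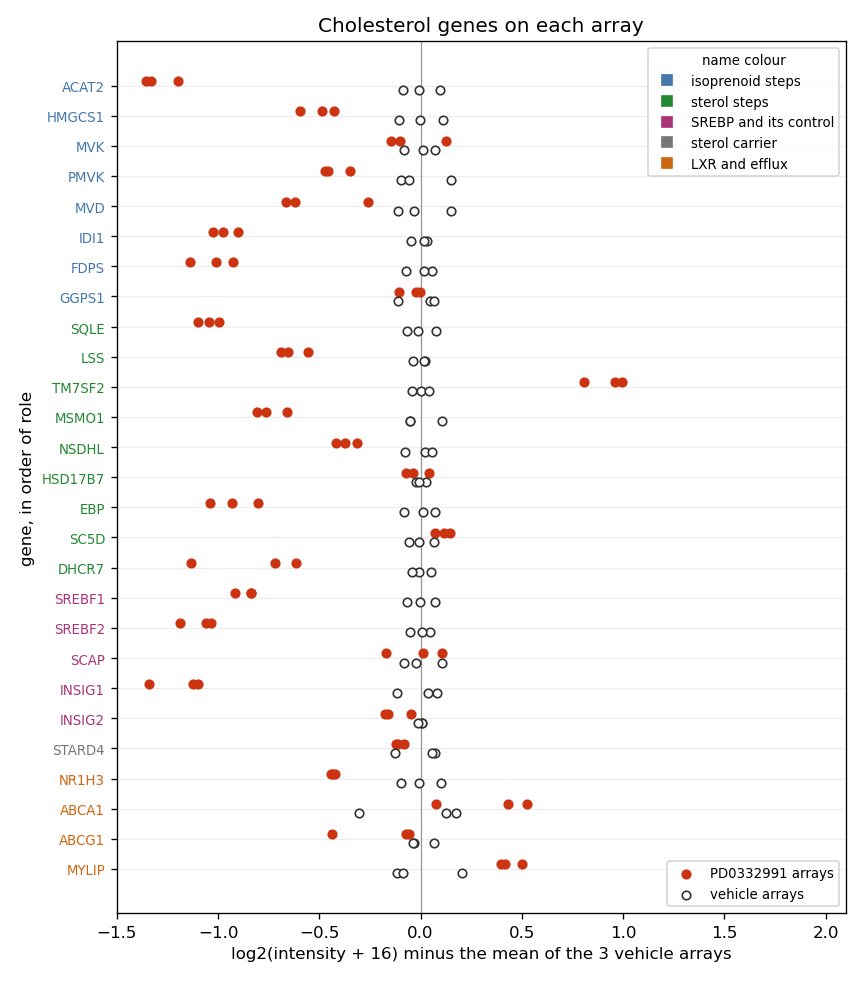
Each row is 1 of the 27 measured genes; filled points are the 3 PD0332991 arrays and open points the 3 vehicle arrays, as log2(intensity + 16) minus the mean of the vehicle arrays. The PD0332991 points of 18 genes lie wholly left of the vehicle points and those of 3 genes (TM7SF2, SC5D and MYLIP) wholly right.

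The isoprenoid steps have 8 genes, of which 6 fell and 2 did not pass; the median of their log2 fold changes was -0.51. ACAT2, the cytosolic thiolase that joins acetyl-CoA units, had intensities of 621, 632 and 694 with PD0332991, against 1723, 1606 and 1515 with vehicle. The groups did not overlap. The log2 fold change was -1.29 (SE 0.08, limma adjusted p = 1.2e-04), or 2.45-fold lower, the largest decrease of the 27 genes on the probe set used. When probe sets were averaged, INSIG1 was lower still, at -1.33 against -1.29 for ACAT2. FDPS, which makes farnesyl diphosphate, had 1040, 1209 and 1139 with PD0332991, against 2402, 2339 and 2195 with vehicle. IDI1, the isomerase that supplies dimethylallyl diphosphate, had 1560, 1433 and 1480 with PD0332991, against 2989, 2835 and 2962 with vehicle. Neither gene's groups overlapped, and the log2 fold changes were -1.03 (SE 0.08, limma adjusted p = 2.8e-04) for FDPS and -0.97 (SE 0.06, limma adjusted p = 1.4e-04) for IDI1. All 4 probe sets of IDI1 were lower, by 0.61 to 1.00 on the log2 scale.

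HMGCS1, the HMG-CoA synthase at the head of the mevalonate route, had 1845, 1638 and 1766 with PD0332991, against 2679, 2480 and 2303 with vehicle. That is a smaller decrease than in ACAT2, 1.42-fold (log2 fold change -0.50, 95% interval -0.70 to -0.30), and a dimmer probe set at -0.40 did not pass. PMVK, the phosphomevalonate kinase, fell 1.34-fold, to 291 ± 14.8 with PD0332991, against 397 ± 39.4 with vehicle (SD, n = 3 each). MVD, the decarboxylase that closes the mevalonate steps, was dim, at 9.68 ± 4.14 with PD0332991 and 20.4 ± 3.47 with vehicle (SD, n = 3 each). Its log2 fold change of -0.51 (limma adjusted p = 0.0311) was -1.06 (adjusted p = 0.0501) with a pseudocount of 1 and -0.20 with 64. MVD did not pass when PD0332991 replicate 2 or 3, or vehicle replicate 1 or 2, was left out (adjusted p 0.0790 to 0.0989).

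MVK and GGPS1 did not pass. MVK, the mevalonate kinase, had 385, 469 and 398 with PD0332991 and 432, 403 and 450 with vehicle, so the groups overlapped, and the interval of its log2 fold change ran from -0.26 to 0.18. A dimmer probe set of MVK fell by 0.55 on the log2 scale (limma adjusted p = 0.0113 over all probe sets). GGPS1, which makes geranylgeranyl diphosphate for protein prenylation and so stands on a branch away from sterols, had 1080 ± 41.3 with PD0332991 and 1116 ± 75.1 with vehicle (SD, n = 3 each). Its interval was -0.22 to 0.13, and its second probe set gave -0.04.

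Of the 9 measured genes of the sterol steps, 6 fell, 1 rose and 2 did not pass; the median of their log2 fold changes was -0.63. SQLE, the squalene epoxidase, had 1172, 1264 and 1219 with PD0332991, against 2671, 2514 and 2418 with vehicle. The 2.06-fold decrease (log2 fold change -1.05, SE 0.06, limma adjusted p = 1.4e-04) was shared by its other 3 probe sets, at -0.63, -1.05 and -1.14. LSS, which closes squalene epoxide into lanosterol, had 486, 498 and 534 with PD0332991, against 807, 802 and 773 with vehicle, and fell 1.55-fold, while its dimmer probe sets did not pass. MSMO1, the C4-methyl sterol oxidase, fell 1.68-fold, with 928, 1029 and 956 on PD0332991 arrays and 1759, 1580 and 1576 on vehicle arrays. NSDHL, which works with it in the removal of the C4 methyl groups, fell 1.29-fold. The dimmer probe set of NSDHL was at -0.22 and did not pass (limma adjusted p = 0.106 over all probe sets).

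EBP, the sterol isomerase, had 519, 616 and 562 with PD0332991, against 1024, 1096 and 1139 with vehicle. The groups were far apart, with a log2 fold change of -0.92 (SE 0.08), and 3 of its 4 probe sets were lower. DHCR7, the reductase of the last step of one route to cholesterol, had 174, 237 and 256 with PD0332991, against 415, 398 and 389 with vehicle. PD0332991 replicate 1 was the lowest, and the spread between the PD0332991 arrays was wide (223 ± 43.1 with PD0332991, 401 ± 13.0 with vehicle, SD, n = 3 each), with a log2 fold change of -0.82 (95% interval -1.16 to -0.48).

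TM7SF2 went the other way. It encodes a sterol C14 reductase, and its intensities were 213, 239 and 245 with PD0332991, against 115, 111 and 119 with vehicle. The groups did not overlap, and the gene rose 1.89-fold (log2 fold change 0.92, SE 0.07, limma adjusted p = 3.0e-04), the largest increase of the 27. Its single probe set has an ID ending in _s_at, a type that can match several transcripts. The probe sets used for ACAT2, PMVK, MVD, DHCR7 and SREBF2, which fell, are of this type too. So are those used for GGPS1, SC5D, ABCG1 and MYLIP. With the _x_at and _s_at types left out, TM7SF2, ACAT2, PMVK, MVD and DHCR7 had no value, and SREBF2 was at -1.18. LBR, the lamin B receptor, which also carries C14 reductase activity, had 2827, 2835 and 2817 with PD0332991, against 5925, 5842 and 5539 with vehicle, and fell 2.03-fold (log2 fold change -1.02, SE 0.05, adjusted p = 8.3e-05). The 2 genes of the C14 reductase step therefore changed in opposite directions.

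HSD17B7, the sterol 3-keto reductase, had 1515 ± 61.6 with PD0332991 and 1538 ± 28.3 with vehicle (SD, n = 3 each). Its log2 fold change had an interval from -0.16 to 0.12, and its single probe set ends in _x_at, a type whose probes can match other genes. The probe set used for IDI1, which fell, ends in _x_at too. IDI1 was at -0.61 with the _x_at and _s_at types left out. SC5D, the sterol C5 desaturase, had 621, 654 and 640 with PD0332991, against 619, 566 and 586 with vehicle. The arrays of the groups did not overlap, but the difference of 0.11 on the log2 scale did not pass (adjusted p = 0.239).

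**Figure D2:**
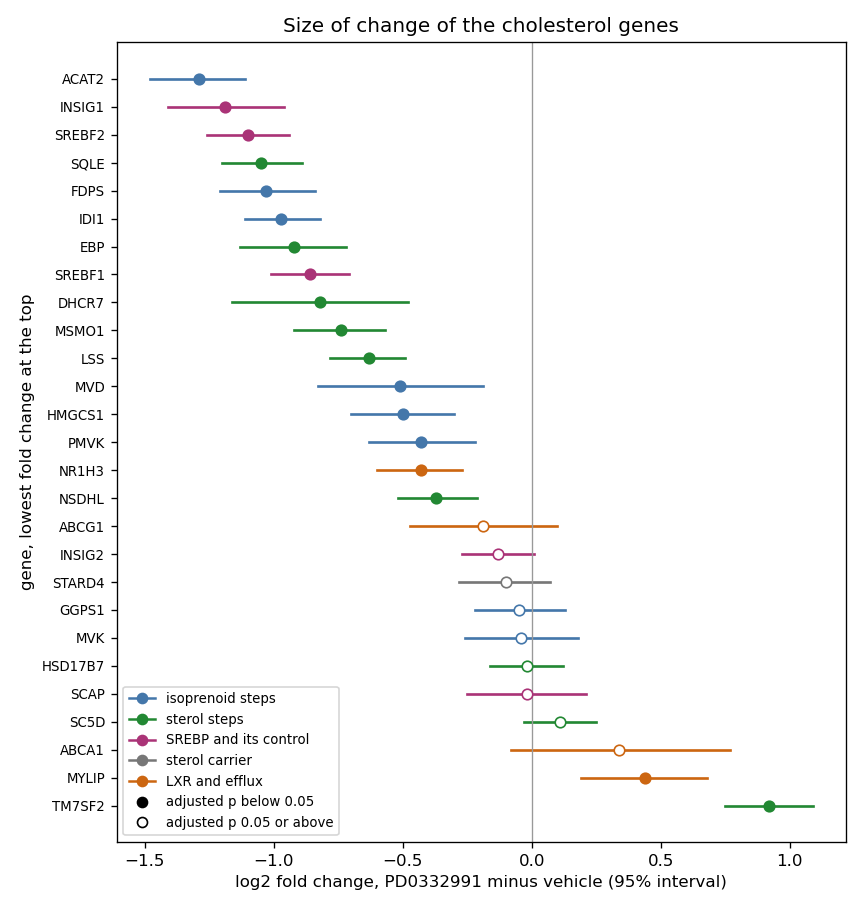
Points are log2 fold changes of the 27 genes, PD0332991 minus vehicle, with the 95% interval from limma; filled points have an adjusted p under 0.05. ACAT2 at -1.29 stands at one end and TM7SF2 at 0.92 at the other, and the 9 open points lie between -0.19 and 0.34.

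Among the 5 genes of SREBP and its control, 3 fell and 2 did not pass; the median of their log2 fold changes was -0.86. SREBF2 had 149, 135 and 152 with PD0332991, against 339, 330 and 316 with vehicle. It fell 2.14-fold (log2 fold change -1.10, SE 0.07, limma adjusted p = 1.3e-04), and its other 2 probe sets gave -1.18 and -0.97. SREBF1, whose products SREBP1a and SREBP1c drive fatty acid as well as sterol genes and which is itself an LXR target, had 626, 593 and 627 with PD0332991, against 1081, 1129 and 1188 with vehicle, and fell 1.82-fold.

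INSIG1, the retention factor whose own gene is a target of SREBP, had 1725, 2007 and 2044 with PD0332991, against 4646, 4500 and 4050 with vehicle. It was 2.28-fold lower (log2 fold change -1.19, SE 0.09, limma adjusted p = 3.2e-04), and its other probe sets were at -1.54 and -1.25. Its paralog INSIG2 had 432 ± 22.0 with PD0332991 and 473 ± 3.52 with vehicle (SD, n = 3 each). The INSIG2 arrays did not overlap between groups, but the log2 fold change of -0.13 did not pass (adjusted p = 0.165). SCAP, the escort protein gene, had 547, 667 and 623 with PD0332991 and 583, 608 and 665 with vehicle, overlapping ranges with an interval of -0.25 to 0.21. STARD4, a sterol carrier between membranes and an SREBP2 target in other cells, was at -0.10 (adjusted p = 0.351).

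Promoter windows of RefSeq (GRCh38.p14, 250 bases before to 50 after the gene start) were available for 24 of the 27 measured genes, in 35 windows. They were searched on both strands for the core of the sterol regulatory element bound by SREBP (TCACNCCAC), for the box of its partner NF-Y (CCAAT, or ATTGG on the other strand) and for an E2F site (TTCCCGC). The NF-Y box was present in 19 of the 24 genes and in 14 of 15 enzyme genes, against 41.7% of the 15384 genes tested that had a window. The sterol element core was found in 1 of the 24, SREBF2, and in 1.4% of genes tested. The E2F letters were in 5 of the 24 (FDPS, MVK, INSIG2, SREBF1 and MYLIP) and in 10.6% of genes tested. Of all 35116 windows, 1.13% held the sterol element core, 34.61% the NF-Y box and 6.55% the E2F letters. These matches are descriptions of letters, and a window without a match says nothing of the factor.

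The windows of 4 genes that fell and of TM7SF2, which rose, are shown to set the letters beside the direction of change. Capitals mark matches to any of the 3 motifs, and every window is read 5' to 3' on the plus strand. SREBF2 lies at chr22:41832855-41833154, INSIG1 at chr7:155297628-155297927, FDPS at chr1:155308616-155308915, EBP at chrX:48521558-48521857 and TM7SF2 at chr11:65111622-65111921.
SREBF2: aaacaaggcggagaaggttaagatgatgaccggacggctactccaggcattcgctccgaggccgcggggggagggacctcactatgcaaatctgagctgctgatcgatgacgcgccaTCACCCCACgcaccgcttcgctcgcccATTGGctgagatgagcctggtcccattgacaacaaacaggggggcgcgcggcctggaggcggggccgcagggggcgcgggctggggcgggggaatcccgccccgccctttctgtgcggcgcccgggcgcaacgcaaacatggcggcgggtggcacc
INSIG1: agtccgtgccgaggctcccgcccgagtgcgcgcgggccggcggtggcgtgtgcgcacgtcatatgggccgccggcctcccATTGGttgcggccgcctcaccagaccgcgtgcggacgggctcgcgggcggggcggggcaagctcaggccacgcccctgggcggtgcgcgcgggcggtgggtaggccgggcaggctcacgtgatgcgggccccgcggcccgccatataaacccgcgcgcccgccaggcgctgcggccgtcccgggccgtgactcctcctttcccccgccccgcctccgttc
FDPS: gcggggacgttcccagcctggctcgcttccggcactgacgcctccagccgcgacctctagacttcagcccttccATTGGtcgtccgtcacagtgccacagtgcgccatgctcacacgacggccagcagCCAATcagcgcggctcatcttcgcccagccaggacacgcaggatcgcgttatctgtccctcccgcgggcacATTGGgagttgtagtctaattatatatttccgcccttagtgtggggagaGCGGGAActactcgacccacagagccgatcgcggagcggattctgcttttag
EBP: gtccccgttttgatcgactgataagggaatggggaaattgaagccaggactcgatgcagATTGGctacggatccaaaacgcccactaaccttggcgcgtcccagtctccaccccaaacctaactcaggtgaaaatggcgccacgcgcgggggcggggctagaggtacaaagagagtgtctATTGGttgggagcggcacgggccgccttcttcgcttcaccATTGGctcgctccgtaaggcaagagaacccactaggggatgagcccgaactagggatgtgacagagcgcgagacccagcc
TM7SF2: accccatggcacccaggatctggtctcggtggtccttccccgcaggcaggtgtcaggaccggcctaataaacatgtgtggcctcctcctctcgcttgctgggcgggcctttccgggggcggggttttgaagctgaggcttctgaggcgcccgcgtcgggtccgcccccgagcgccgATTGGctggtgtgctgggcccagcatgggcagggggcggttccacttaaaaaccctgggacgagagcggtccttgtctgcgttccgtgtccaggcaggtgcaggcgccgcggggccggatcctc

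In SREBF2 the sterol element core starts at position -133 from the gene start and the NF-Y box at -106. INSIG1 and TM7SF2 each held 1 NF-Y box, and FDPS and EBP held 3 each, FDPS with an E2F match that begins at -2. NSDHL, which fell, and MVK, which did not pass, had 5 NF-Y matches each in their single windows, with each strand counted. The NSDHL matches that begin at -113 and -110, on opposite strands, overlap. HSD17B7, which like MVK did not pass, held 2 NF-Y boxes.

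The LXR and efflux genes showed no common direction: of the 4 measured, 1 fell, 1 rose and 2 did not pass. Their median log2 fold change was 0.08, against -0.51 for the 17 measured enzymes, of which 12 fell, 1 rose and 4 did not pass. The LXR median was -0.00074 without PD0332991 replicate 2 and -0.0072 without vehicle replicate 3. NR1H3, which encodes LXR alpha, had 59.5, 58.5 and 58.8 with PD0332991, against 84.6, 78.7 and 92.5 with vehicle. The gene fell 1.35-fold (log2 fold change -0.43, SE 0.07, limma adjusted p = 0.0045) at a low intensity.

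MYLIP had 210, 194 and 197 with PD0332991, against 131, 134 and 168 with vehicle. The arrays did not overlap, and MYLIP rose 1.35-fold (log2 fold change 0.44, SE 0.10, limma adjusted p = 0.0213). Of its 6 probe sets 3 were higher and 3 not called, and with the _x_at and _s_at types left out it was at 0.20 (adjusted p = 0.393). Its adjusted p was 0.0712, 0.0531 and 0.0610 without PD0332991 replicate 1, 2 or 3, and 0.0724 and 0.0748 without vehicle replicate 1 or 2, so that without any 1 of these arrays TM7SF2 was the 1 gene that rose.

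ABCA1, the pump that loads lipid-poor apolipoprotein with cholesterol, had 114, 123 and 85.5 with PD0332991 and 89.3, 93.0 and 62.1 with vehicle. The ranges overlapped, with replicate 3 the lowest in each group, and the log2 fold change of 0.34 had an interval from -0.08 to 0.77 (adjusted p = 0.210). ABCG1, which exports cholesterol to mature lipoprotein particles, had 558, 732 and 724 with PD0332991, against 745, 799 and 741 with vehicle. All PD0332991 arrays lay below all vehicle arrays, but the log2 fold change of -0.19 on this probe set did not pass (adjusted p = 0.301). Its dimmer probe sets included calls in opposite directions. With limma p adjusted over all probe sets, 1 was at 0.29 (adjusted p = 0.0331) and 1 at -0.37 (adjusted p = 0.0414). ABCG1 was the 1 gene of the list with calls both ways, so its direction was not settled by these probe sets.

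Over all 62 probe sets of the 27 genes, 31 were lower, 5 higher and 26 not called, in a fit over all 54613 probe sets in which 10.2% were lower and 10.7% higher. Of the 16 genes with more than 1 probe set, IDI1, SQLE, DHCR7, SREBF2 and INSIG1 had all of them lower.

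**Figure D3:**
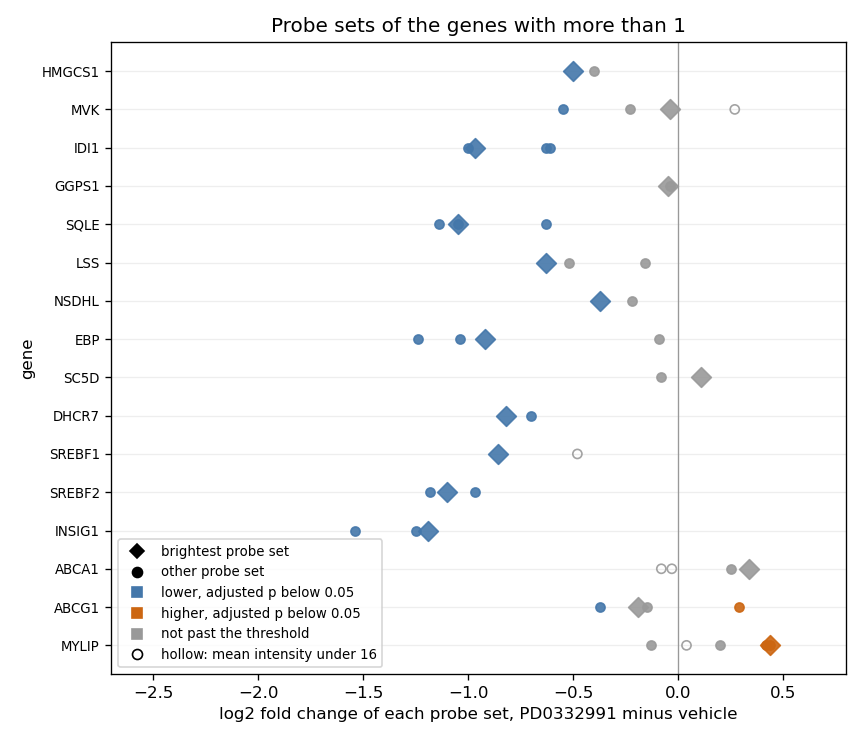
Each point is a probe set of the 16 genes with more than 1; diamonds are the brightest probe set, colours give the call over all probe sets, and hollow points have a mean intensity under 16. All points of SQLE, SREBF2 and INSIG1 lie left of 0, while ABCG1 has 1 called point on each side.

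Averaged per array, the 8 isoprenoid genes were 0.60 lower with PD0332991 on the log2 scale and the 9 sterol genes 0.39 lower. The 5 genes of SREBP control were 0.66 lower, and ABCA1, ABCG1 and MYLIP together 0.20 higher. Of these last 3 genes, ABCG1 went the other way, at -0.19 on the probe set used. The mean of the 17 enzymes minus the mean of the 3 efflux and uptake genes was 1.09, 1.03 and 1.17 on the PD0332991 arrays, against 1.83, 1.71 and 1.81 on the vehicle arrays. All PD0332991 arrays lay below all vehicle arrays, by -0.69 between the group means (SD 0.07 in each group, n = 3 each). This difference is a description of chosen genes and was given no test.

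**Figure D4:**
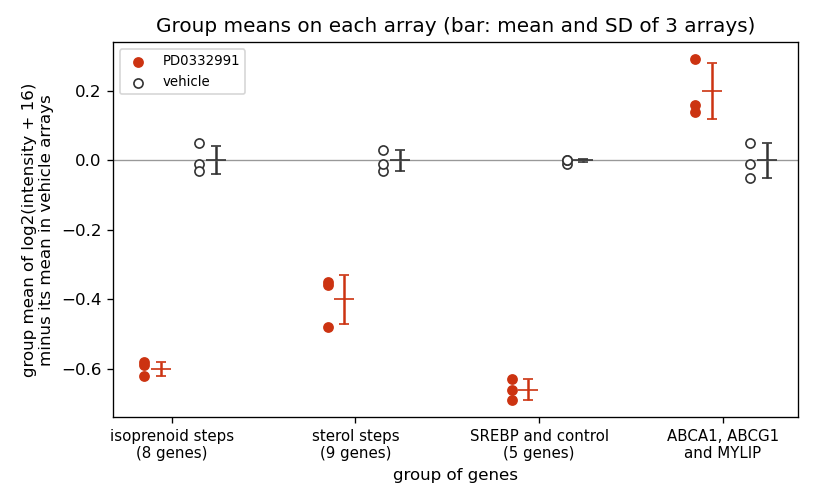
Points are the mean log2(intensity + 16) of each group of genes on each array, minus its mean in vehicle arrays, with bars for the mean and SD of 3 arrays. The isoprenoid, sterol and SREBP groups lie below 0 with PD0332991, and the group of ABCA1, ABCG1 and MYLIP lies 0.20 above it. In this last group only MYLIP, which is not a pump, had an adjusted p under 0.05.

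Other genes of sterol handling went both ways. Of 15 genes of sterol trafficking, storage and lipoprotein receptors, 6 rose, 5 fell and 4 did not pass. By the same rule 15.6% of all genes rose and 13.6% fell. TMEM97, a sterol-regulated membrane protein gene, had 506, 690 and 588 with PD0332991, against 1690, 1793 and 1866 with vehicle, 2.97-fold lower (log2 fold change -1.57, SE 0.12, limma adjusted p = 2.8e-04). The lipoprotein receptor genes VLDLR and LRP8 fell by 1.24 and 0.62 on the log2 scale, VLDLR to a low intensity of 28.7 with PD0332991, against 90.0 with vehicle. SOAT2, one of the enzymes that esterify cholesterol, had 877, 794 and 857 with PD0332991, against 411, 420 and 471 with vehicle, and rose 1.91-fold, whereas SOAT1, the other such enzyme, fell by 0.54 on the log2 scale. NPC1, which moves cholesterol out of lysosomes, rose by 0.60, and the cholesteryl ester hydrolase genes NCEH1 and LIPA rose by 0.65 and 0.34. NPC2 was at -0.27, with all PD0332991 arrays below all vehicle arrays, and did not pass (limma adjusted p = 0.109). LRP8, SOAT1, NPC1, NPC2, NCEH1 and LIPA are named after their values were seen.

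Of 6 measured genes of SREBP processing and sterol-regulated degradation, 3 fell and 3 rose, against 13.6% and 15.6% of all genes. ERLIN1, a membrane protein of the endoplasmic reticulum that binds cholesterol, fell by 0.61, PAQR3, a Golgi anchor of SCAP, by 0.46 and MBTPS2, the site-2 protease that releases SREBP, by 0.41 on the log2 scale. ERLIN2, RNF139 and MBTPS1, named after their values were seen, rose by 0.29, 0.28 and 0.23. Of 3 other sterol enzyme and scaffold genes LBR fell and 2 did not pass. Of 13 genes on the isoprenoid branches 4 fell (30.8%), 2 rose (15.4%) and 7 did not pass. The share that rose was near the 15.6% of all genes, and 13.6% of all genes fell. DHDDS of dolichol synthesis rose by 0.67 and ZMPSTE24, a protease of prenylated proteins, by 0.31. COQ2 of ubiquinone synthesis fell by 0.65 and FNTB, a farnesyltransferase subunit, by 0.51. Of 10 LXR partners, other LXR targets and oxysterol enzymes 0 passed in limma in either direction. At an unadjusted limma p under 0.05, 2 were higher and 0 lower, against 20.8% higher and 18.1% lower of all genes. Several of the 10 were dim. With PD0332991 and with vehicle, PLTP was at 5.43 and 5.42, CH25H at 13.5 and 14.4 and CYP7B1 at 12.1 and 13.7. Without detection calls, such values cannot be told from background. RXRB, the brightest, was at 621 with PD0332991 and 548 with vehicle. PLTP, CH25H, CYP7B1 and RXRB are named after their values were seen.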

How the data were processed

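Total RNA was the starting material and biotin the label for 6 one-colour Affymetrix arrays, per the labels' protocols. The authors deposited 54675 probe set intensity values per array, linear and from 0.56 to 16362. Trimmed means of 282 to 294 show a common level. The steps of summarisation, correction and scaling were not given in the sources used here. The values carry neither detection calls nor batches. Precision is limited by the number of arrays.

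After removal of 62 control probe sets, 41091 of 54613 carried 1 gene symbol in the platform annotation, 1801 several, and 11721 are unnamed here. RefSeq (GRCh38.p14) gene IDs updated the symbols, with 54 unmatched. A gene's brightest probe set was used. The groups were tested on log2(intensity + 16) with limma 3.58.1 in R 4.3.3 (lmFit, eBayes, two-sided, 4 residual degrees of freedom). P values were Benjamini-Hochberg adjusted over 19775 genes at 0.05, and every adjusted p is limma's. Those of a gene's dimmer probe sets come from a fit adjusted over all 54613 probe sets. The design counted 19 enzymes and 5 LXR genes, of which 17 and 4 were measured. All measured members are named. Each pathway list adds up to 3 called genes with the largest changes and no overlap and up to 2 called against most, and each list of another cell type its 2 brightest. The members and lists were chosen with earlier results of these data known.

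In simulated arrays of 19775 genes, with 50 genes per size, 19 were recovered at a log2 change of 0.5, 34 at 1, 48 at 2 and 50 at 3, and 13 of 19575 unchanged genes were called. Far fewer genes were changed there than the 5786 called in the real arrays, so these counts do not give the sensitivity in the real data. Same-numbered arrays deviated together at r 0.00, 0.08 and 0.08, so numbers were not taken as pairs. The alternatives covered a replicate block, single arrays, scaling, dim genes, the choice of probe set, pseudocounts of 1 and 64, the variance model and, chosen after seeing the data, a fit over all probe sets. Figures used matplotlib 3.10.9.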

Additional observations from a re-analysis of the deposited data

How the results depend on the processing

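Over 17 alternatives, 23 of the 27 genes kept their side of the threshold wherever they had a value; the others were MVD, MYLIP, ABCA1 and ABCG1. The 16 of the 23 that were called also kept their direction, whereas 5 uncalled ones (SCAP, MVK, GGPS1, HSD17B7 and SC5D) changed sign under at least 1 alternative, to values between -0.08 and 0.06. The count of genes that fell was 16 with the replicate block and under each scaling, 15 to 16 with 1 array left out, 14 of 25 among brighter genes and 12 of 21 on probe sets of neither the _x_at nor the _s_at type, where fewer genes had a value. The count that rose was 1 to 2 with 1 array left out, 1 when probe sets were averaged and 1 on the restricted types. The enzyme median of -0.51 ran from -0.61 to -0.46 with 1 array left out. It was -0.57 among brighter genes, -0.45 when probe sets were averaged, -0.61 on the restricted types and -0.65 at pseudocount 1. The LXR median of 0.08 ran from -0.0072 to 0.12 with 1 array left out and was -0.00074 without PD0332991 replicate 2. It was 0.34 among brighter genes, 0.0094 when probe sets were averaged and 0.24 on the restricted types. The enzyme mean minus the mean of ABCA1, ABCG1 and MYLIP, -0.69, was -0.54 when probe sets were averaged and -0.82 on the restricted types. This difference was -0.76 at pseudocount 1 and -0.59 at pseudocount 64. ABCG1 was at 0.29 (adjusted p = 0.0242) on the restricted types, where another of its probe sets is used. With the replicate block 4793 genes were called, against 5786 without it, MYLIP had an adjusted p of 0.0509 and ABCA1 one of 0.0253. MYLIP was at 0.23 (adjusted p = 0.0629) when probe sets were averaged. Where no construction is named, the cause was not tested. Without detection calls, a dim value such as that of MVD cannot be told from background.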
